A study of Mus musculus with 12 samples.

Results

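The 10 genes described here encode interferon-inducible GTPases: the guanylate-binding protein genes Gbp2, Gbp3, Gbp5 and Gbp7, and the immunity-related GTPase (IRG) genes Irgm1, Irgm2, Igtp, Iigp1, Tgtp1 and Ifi47. They were chosen by name, as members of these families that interferon-gamma is known to induce. Earlier results of these data were known when they were chosen, so the counts of members below only describe these data. The members were found through the gene identifiers of the count files, 10 of 56884 genes in all. Of those, 17757 passed a filter on low counts and were tested, and all 10 members were among them.

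The tumours held TS/A, a mouse mammary adenocarcinoma line that arose in a BALB/c mouse, together with cancer-associated fibroblasts, and the genotype was labelled WT in every sample. Messenger RNA was sequenced from 12 tumour samples in 4 groups of 3. The groups were untreated or vehicle tumours (control), radiotherapy alone (RT), muFAP-4-1BBL alone (FAP41BBL), an agonist of the costimulatory receptor 4-1BB that is directed at fibroblast activation protein, and radiotherapy with muFAP-4-1BBL (RT_FAP41BBL). The labels tie no sample to an animal, dose, time, age or batch, so the p-values reflect the variation among these samples, part of which may be technical.

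Guanylate-binding proteins and IRG proteins are large GTPases of cell-autonomous immunity: they gather on the vacuoles of intracellular parasites and bacteria and help to break them open. Irgm1, Irgm2 and Igtp (also called Irgm3) are regulators that sit on the cell's own membranes and keep the effector GTPases inactive there, while Iigp1 (Irga6), Tgtp1 (Irgb6) and Ifi47 (Irgd) are effectors that load onto vacuoles. Interferon-gamma induces the families through gamma-activated sites (GAS) in their promoters and through IRF1, which binds interferon-stimulated response elements (ISRE); type I interferon acts on the ISRE through a complex that holds STAT2 and IRF9.

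The 4 Gbp members lie in a cluster on chromosome 3 of GRCm39, all on the plus strand. Gbp5 (ENSMUSG00000105504.5) spans chr3:142199739-142228105, Gbp7 (ENSMUSG00000040253.16) chr3:142236103-142255910, Gbp3 (ENSMUSG00000028268.15) chr3:142265787-142278970 and Gbp2 (ENSMUSG00000028270.13) chr3:142326363-142343769. Chromosome 11 carries 5 of the 6 IRG members in separate clusters. Irgm1 (ENSMUSG00000046879.8) spans chr11:48752795-48762510 on the minus strand, Tgtp1 (ENSMUSG00000078922.10) chr11:48876154-48884999 on the minus strand and Ifi47 (ENSMUSG00000078920.4) chr11:48967414-48987801 on the plus strand. Igtp (ENSMUSG00000078853.9) at chr11:58090382-58098417 and Irgm2 (ENSMUSG00000069874.8) at chr11:58090444-58113608 overlap on the plus strand and share 8.01% and 4.39% of their exonic bases. Iigp1 lies apart from them on another chromosome.

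The promoters were examined because the members moved together across the tumours. RefSeq promoter windows of GRCm38.p6, 250 bases before to 50 after the transcription start, were at hand for 9 of the 10 members, all but Iigp1. The ISRE core was searched as GAAA followed after any 2 bases by GAAA, and the GAS as TTCNNNGAA, on both strands, and matches to the ISRE core could overlap each other. Of 32851 windows of 300 bases, 3.44% held the ISRE core, 8.3% held the GAS and 0.454% held both. The GTPase genes were counted per gene, and Gbp3 had 2 windows. Among 6 other GTPase genes of these families with a window, 4 held the ISRE core, 2 the GAS and 2 both. Among the 9 members with a window, 8 held the ISRE core, 5 the GAS and 5 both. The stretches of 60 bases around the ISRE matches are shown for those 8 genes, 5′ to 3′ on the strand of the gene, with bases of a match in capitals. In Gbp2 (chr3:142620579-142620638, plus strand), Gbp3 (chr3:142559977-142560036, plus strand), Gbp5 (chr3:142496744-142496803, plus strand) and Gbp7 (chr3:142530258-142530317, plus strand) the ISRE core read on the opposite strand, so that it appears as a repeated TTTC. In Irgm1 (chr11:48871421-48871480, minus strand), Irgm2 (chr11:58214888-58214947, plus strand), Igtp (chr11:58199496-58199555, plus strand) and Tgtp1 (chr11:48992289-48992348, minus strand) it read on the strand of the gene.
Gbp2: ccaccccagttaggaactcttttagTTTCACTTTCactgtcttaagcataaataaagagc
Gbp3: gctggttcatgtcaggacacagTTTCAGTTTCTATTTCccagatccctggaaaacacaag
Gbp5: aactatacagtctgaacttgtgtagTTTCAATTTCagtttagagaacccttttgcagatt
Gbp7: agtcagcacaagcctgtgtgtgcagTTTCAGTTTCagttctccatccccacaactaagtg
Irgm1: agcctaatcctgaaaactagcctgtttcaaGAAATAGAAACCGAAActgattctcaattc
Irgm2: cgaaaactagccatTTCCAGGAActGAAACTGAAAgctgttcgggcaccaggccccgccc
Igtp: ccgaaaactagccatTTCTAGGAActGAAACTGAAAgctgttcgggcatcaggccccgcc
Tgtp1: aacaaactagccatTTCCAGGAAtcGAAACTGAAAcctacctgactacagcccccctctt

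The ISRE matches of the 8 genes all lay upstream of the start: the nearest were in Irgm1, 30 to 15 bases before it for a pair of overlapping matches, and the farthest was in Gbp5, 165 to 156 bases before it. Gbp3 also held a pair of overlapping matches, from 45 to 30 bases before the start. In Irgm2, Igtp and Tgtp1 a GAS was followed after 2 bases by the ISRE core. That joint pattern was noticed in these stretches and then counted: it was found in 5 of the 32851 windows (0.0152%), those of Igtp, Irgm2, Tgtp1, its near-copy Tgtp2 and the predicted gene Gm12185, which shares exonic sequence with Tgtp1. In Gbp5 and Gbp7 the GAS matches were separate from the ISRE core. Neither motif was found in the Ifi47 window. A match describes letters in the reference genome, which is of another strain than BALB/c, and binding there was not measured.

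**Figure D1:**
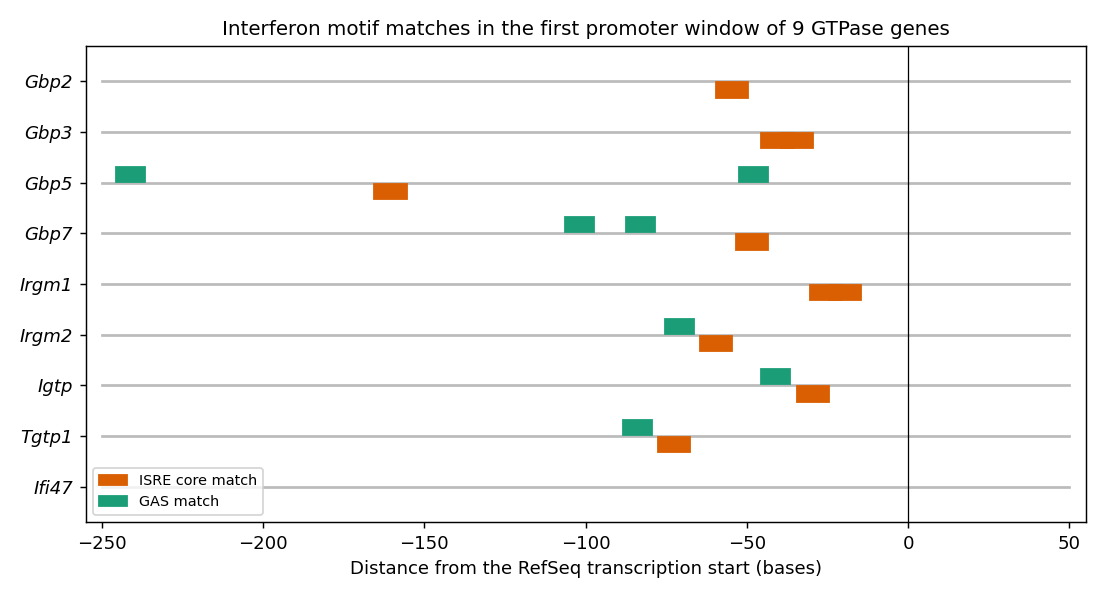
Positions of ISRE core matches (orange) and GAS matches (green) along the RefSeq promoter windows of 9 members, on an axis of bases from the transcription start. In Irgm2, Igtp and Tgtp1 a GAS sits just upstream of the ISRE core, and Ifi47 has neither.

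Depth was even across the study: libraries held 34076477 to 42067481 counts, and members had 770 (Tgtp1) to 22290 (Iigp1) counts in the control and RT_FAP41BBL libraries. Markers of fibroblasts (summed 4880 to 11100 CPM, read counts scaled to a common library size) and the epithelial keratins Krt8 and Krt18 were present in every library, while Epcam was between 0.0824 and 8.18 CPM. The RT libraries stood apart in skeletal muscle genes: the 13 markers summed to 5420 to 12000 CPM there, against 50.9 to 573 in control, 67.5 to 1870 in FAP41BBL and 442 to 864 in RT_FAP41BBL. Control replicate 2 held 55.4 CPM of keratinocyte markers, against 1.24 to 13.1 in the other libraries. In bulk tumour RNA a change in the number of cells that express a gene and a change in RNA per cell cannot be told apart.

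Per length of gene, the members differed widely in level. In control tumours Gbp2 (82.4 ± 16.7 RPKM, which is CPM per kilobase of exon; SD, n = 3) and Igtp (71.7 ± 8.34) were the highest and did not differ beyond their spread. Iigp1 (48.1 ± 4.87), Gbp3 (48 ± 7.59), Ifi47 (43.7 ± 5.59), Irgm1 (39.9 ± 4.16) and Irgm2 (39.3 ± 3.38) followed, each within the spread of its neighbour. Gbp7 (31.6 ± 5.47) came next, and Gbp5 (10 ± 2.57) and Tgtp1 (7.06 ± 0.758) were the lowest. These mean levels ranked between the 62.4th percentile (Tgtp1) and the 97.3rd (Gbp2) of the genes tested. In RT_FAP41BBL tumours the same pair led, Gbp2 at 139 ± 35.4 RPKM and Igtp at 135 ± 38.1, and Gbp5 (19.7 ± 5.56) and Tgtp1 (17.2 ± 6.62) were again the lowest. The order depends in part on the exonic length used. For Gbp5 it was 6637 bases, against 3756 in its longest transcript, and for Gbp2 2516 bases by both measures. Tgtp1 shares 74.1% of its 150-base windows with other genes, so its level may be undercounted.

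The regulators Irgm1, Irgm2 and Igtp were higher in every irradiated library than in any control library. Irgm1, whose loss in mice impairs resistance to many intracellular pathogens, stood at 241, 205 and 250 CPM in control replicates 1, 2 and 3, at 503, 364 and 345 with RT, at 239, 347 and 245 with FAP41BBL and at 370, 535 and 399 with RT_FAP41BBL. The RT and RT_FAP41BBL values lay above all control values, and the FAP41BBL values overlapped them. Irgm1 rose by 0.80 ± 0.19 on the log2 scale in RT against control (SE; 1.74-fold; adjusted p 0.0223) and by 0.91 ± 0.19 in RT_FAP41BBL (1.87-fold; adjusted p 0.0151) in edgeR's quasi-likelihood test. The RT call of Irgm1 was lost without any 1 of the 3 control libraries or RT replicate 1 (adjusted p up to 0.1), and the RT_FAP41BBL call without control replicate 2 or RT_FAP41BBL replicate 2 (up to 0.0845).

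Irgm2 stood at 145, 133 and 158 CPM in the controls, 265, 209 and 210 with RT, 136, 216 and 158 with FAP41BBL, and 221, 318 and 236 with RT_FAP41BBL. It had the narrowest spread within groups of the 10 members on the log2 scale, an SD of 0.25. The gene rose by 0.65 ± 0.18 in RT (1.57-fold, adjusted p 0.0406) and by 0.83 ± 0.18 in RT_FAP41BBL (1.78-fold, adjusted p 0.0167) against control, and its call in RT was lost whichever of the 6 libraries was left out (adjusted p 0.062 to 0.152). The RT_FAP41BBL call was lost without control replicate 1, control replicate 2 or RT_FAP41BBL replicate 2 (adjusted p up to 0.086). Igtp stood at 156, 126 and 153 CPM in the controls, 332, 182 and 195 with RT, 161, 204 and 146 with FAP41BBL, and 208, 358 and 252 with RT_FAP41BBL. RT replicate 1 was far above the other RT libraries for this gene. The log2 difference of Igtp was 0.70 ± 0.25 in RT, which missed the threshold (adjusted p 0.102), and the gene rose by 0.91 ± 0.25 in RT_FAP41BBL (1.88-fold, adjusted p 0.0457). That call held in 1 of 6 fits with a library left out, the one without RT_FAP41BBL replicate 1 (adjusted p up to 0.181 in the others).

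Among the effectors, Tgtp1 counted alone had the largest log2 change of the 10 members in RT and in RT_FAP41BBL. Its values were 24, 19.8 and 24.1 CPM in the controls, 55.2, 36.9 and 43.9 with RT, 28.4, 36.6 and 25.4 with FAP41BBL, and 37.9, 78.8 and 48.7 with RT_FAP41BBL. All treated libraries lay above all control libraries, those given the agonist alone by a narrow margin. Tgtp1 rose 2-fold in RT (log2 1.00 ± 0.25, adjusted p 0.0275) and 2.44-fold in RT_FAP41BBL (log2 1.28 ± 0.25, adjusted p 0.0115). The RT call held in 1 of 6 fits that left out a library (without RT replicate 2) and the RT_FAP41BBL call in 5 of 6, all but the one without control replicate 2 (adjusted p 0.0685). It has a near-identical copy: 74.1% of the 150-base windows of its transcript also occur in another gene, mostly Tgtp2, so the value of Tgtp1 alone is uncertain. With Tgtp1 and Tgtp2 counted as 1 gene the log2 change was 0.76 ± 0.22 in RT (adjusted p 0.0466) and 1.09 ± 0.22 in RT_FAP41BBL (adjusted p 0.0122), and the value in RT was then below those of Gbp3 (0.82) and Irgm1 (0.80).

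Iigp1 (ENSMUSG00000054072.13, chr18:60509099-60525706, plus strand), an effector well studied in Toxoplasma infection, stood at 287, 249 and 305 CPM in the controls, 499, 292 and 380 with RT, 277, 503 and 289 with FAP41BBL, and 397, 597 and 466 with RT_FAP41BBL. One library in the FAP41BBL group, replicate 2, was above every RT library, while the other FAP41BBL libraries were inside the control range. The log2 difference of Iigp1 from control was 0.48 ± 0.25 in RT (adjusted p 0.273) and 0.80 ± 0.25 in RT_FAP41BBL (adjusted p 0.0764). Ifi47, the member without a motif match, stood at 117, 92.1 and 115 CPM in the controls, 190, 110 and 119 with RT, 110, 140 and 103 with FAP41BBL, and 131, 189 and 150 with RT_FAP41BBL. The RT group overlapped control for Ifi47 and the RT_FAP41BBL group did not. Its log2 differences from control were 0.37 ± 0.21 in RT (adjusted p 0.309) and 0.54 ± 0.21 in RT_FAP41BBL (adjusted p 0.141).

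Among the guanylate-binding protein genes, Gbp3 passed the test. It stood at 168, 128 and 173 CPM in the controls, 313, 251 and 264 with RT, 172, 224 and 156 with FAP41BBL, and 244, 374 and 264 with RT_FAP41BBL. Irradiated libraries with or without the agonist were above all non-irradiated ones. The gene rose by 0.82 ± 0.19 on the log2 scale in RT (1.76-fold, adjusted p 0.0175) and by 0.91 ± 0.19 in RT_FAP41BBL (1.88-fold, adjusted p 0.0137). The RT call of Gbp3 held in 5 of the 6 fits that left out a library and was lost without control replicate 2 (adjusted p 0.0848), and the RT_FAP41BBL call was lost without control replicate 2 or RT_FAP41BBL replicate 2 (up to 0.0768).

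Gbp2, which lies in the same cluster and is recruited to bacterial and parasite vacuoles, stood at 198, 171 and 253 CPM in the controls, 392, 208 and 260 with RT, 213, 309 and 228 with FAP41BBL, and 256, 434 and 356 with RT_FAP41BBL. RT replicate 2 fell inside the control range. The log2 differences of Gbp2 were 0.47 ± 0.26 in RT (adjusted p 0.3) and 0.75 ± 0.26 in RT_FAP41BBL (adjusted p 0.102). Gbp5, which promotes assembly of the NLRP3 inflammasome, stood at 61.2, 52.8 and 85.7 CPM in the controls, 110, 62.5 and 96.7 with RT, 65, 116 and 77.1 with FAP41BBL, and 96.4, 170 and 126 with RT_FAP41BBL. Its spread within groups was the widest of the 10, an SD of 0.41 on the log2 scale. The log2 differences of Gbp5 were 0.43 ± 0.29 in RT (adjusted p 0.413) and 0.97 ± 0.29 in RT_FAP41BBL (adjusted p 0.0693). Gbp7 stood at 169, 151 and 211 CPM in the controls, 221, 177 and 241 with RT, 149, 269 and 188 with FAP41BBL, and 218, 302 and 262 with RT_FAP41BBL. It had the smallest difference of the 10 in RT, 0.27 ± 0.21 (adjusted p 0.486), with 0.56 ± 0.21 in RT_FAP41BBL (adjusted p 0.131), and it shares 11.3% of its exonic bases with Gm43802.

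**Figure D2:**
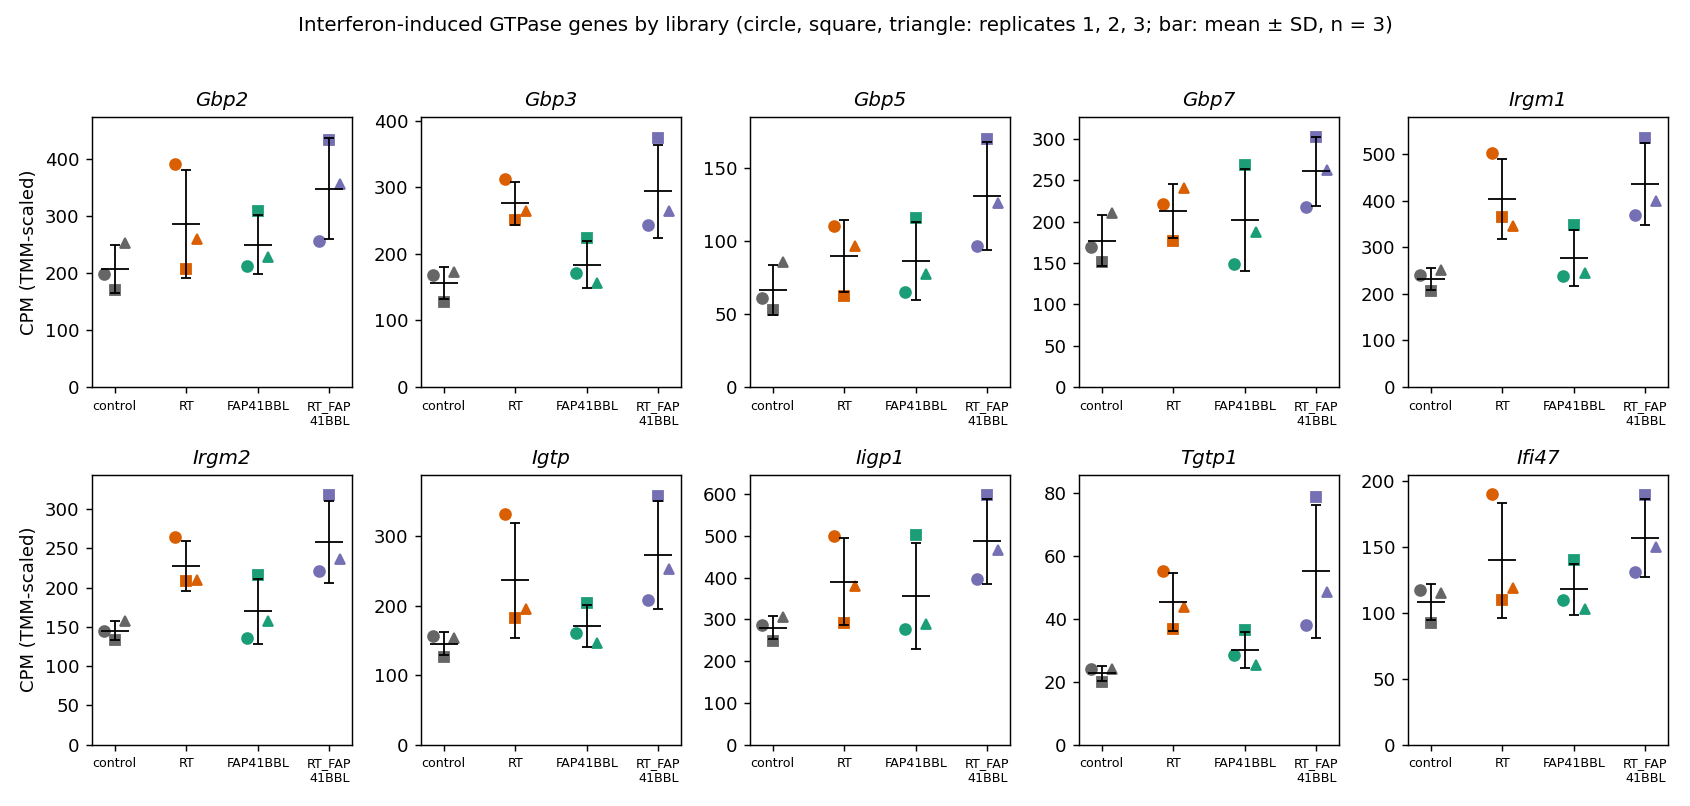
Level of each of the 10 genes in CPM (y axis, from 0) in the 12 libraries, by group; symbols are replicates and bars are the mean and SD of 3 libraries. For Gbp3, Irgm1, Irgm2, Igtp and Tgtp1 every irradiated library lies above every control library, and RT_FAP41BBL replicate 2 is the highest library for 9 of the 10 genes.

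With radiotherapy alone, 4 of the 10 genes (Gbp3, Irgm1, Irgm2 and Tgtp1) rose against control and none fell. Over all genes tested, 6.57% were called higher, 3.05% lower and 9.62% in either direction. The log2 difference was above 0 for all 10 members, as it was for 49.8% of all genes, with a median of 0.565 against -0.00189 over all genes. The groups did not overlap for 5 members, the 4 called and Igtp, and for 14.9% of all genes, counted in the higher direction. The number of calls changed with single libraries: it was 1 without control replicate 1, 0 without control replicate 2, 1 without control replicate 3, 1 without RT replicate 1, 3 without RT replicate 2 and 2 without RT replicate 3. When a score of muscle genes, which nearly coincides with the RT group, was added as a covariate, no member was called. Of all genes 3 were called in that fit, against 1709 in the main fit, and the median log2 difference of the members was 1.06.

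FAP41BBL alone gave no call among the 10 genes. Differences from control ran from 0.12 (Ifi47) to 0.41 (Tgtp1) on the log2 scale, with an adjusted p of 0.999 for each. The widest 95% interval, that of Gbp5, ran from -0.27 to 1.01. Of all genes, 0.00563% were called in either direction in edgeR's quasi-likelihood test, which is 1 gene. At an unadjusted p under 0.05 there were 0 members and 918 of all genes (5.17%), and DESeq2 called 0 members. Tgtp1 was the only member whose FAP41BBL and control libraries did not overlap, against 5.7% of all genes in that direction. The FAP41BBL group was uneven: replicate 2 was the highest of the group for all 10 members, at a summed 2360 CPM against 1550 and 1610.

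With the combination, 5 of the 10 genes rose against control (Gbp3, Irgm1, Irgm2, Igtp and Tgtp1), none fell, and of all genes 5.59% were called higher, 2.31% lower and 7.91% in either direction. All 10 members had an unadjusted p under 0.05, as did 23.6% of all genes, and all 10 had RT_FAP41BBL libraries entirely above the control libraries, against 20% of all genes. The median log2 difference of the members was 0.87 and that of all genes 0.01. This comparison shares its control libraries with the RT and FAP41BBL comparisons. Left-out libraries changed the count here too: 0 members were called without control replicate 2, 1 without RT_FAP41BBL replicate 2 and 3 without control replicate 1. DESeq2 called 8 members and 2325 of all genes, and the fit with the muscle covariate 7 members and 893 of all genes. The main fit called 1404 of all genes.

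**Figure D3:**
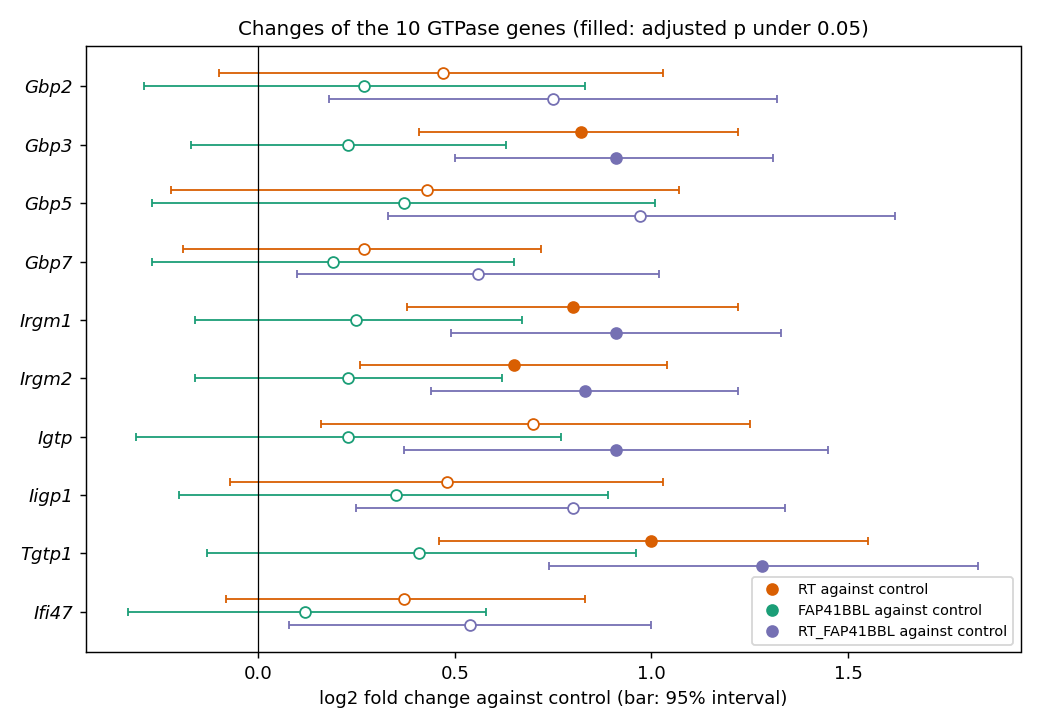
Log2 fold change of each gene against control (x axis) with its 95% interval, for RT (orange), FAP41BBL (green) and RT_FAP41BBL (purple); filled points have an adjusted p under 0.05. The filled points belong to Gbp3, Irgm1, Irgm2, Igtp and Tgtp1, and every FAP41BBL interval includes 0.

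Adding the agonist to radiotherapy gave no call among the members. The log2 difference of RT_FAP41BBL from RT ran from 0.09 ± 0.19 (Gbp3, 95% interval -0.31 to 0.49) and 0.10 ± 0.19 (Irgm1, -0.31 to 0.52) to 0.55 ± 0.29 (Gbp5, -0.1 to 1.19, adjusted p 0.297), with a median of 0.245. Of all genes, 5.76% were called in either direction in this comparison, 3.36% higher and 2.4% lower, and 0 members and 4086 genes had an unadjusted p under 0.05. DESeq2 called 0 members, and the groups overlapped for every member (14.5% of all genes had RT_FAP41BBL libraries entirely above RT). In the opposite pairing, radiotherapy added to the agonist, edgeR's quasi-likelihood test called 0 members and 0.946% of all genes in either direction. The log2 difference of RT_FAP41BBL from FAP41BBL ran from 0.37 (Gbp7) to 0.87 (Tgtp1, adjusted p 0.127). Gbp3, Irgm1, Irgm2, Igtp and Tgtp1 had an unadjusted p under 0.05, as had 13.5% of all genes. For the same 5 genes the groups did not overlap (12.3% of all genes, higher). DESeq2 called 4 of them, Gbp3, Irgm1, Irgm2 and Tgtp1, and 783 of all genes, where the main fit called 168.

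Across both agonist states, irradiated against non-irradiated tumours, 5 members rose, and of all genes 6.51% were called higher, 3.55% lower and 10.1% in either direction. Gbp3 rose by 0.75 ± 0.13 (1.68-fold, adjusted p 0.00517), Irgm1 by 0.73 ± 0.14 (adjusted p 0.00657), Irgm2 by 0.63 ± 0.13 (adjusted p 0.00986), Tgtp1 by 0.94 ± 0.18 (1.91-fold, adjusted p 0.00752) and Igtp by 0.69 ± 0.18 (adjusted p 0.03) on the log2 scale. The 4 genes other than Igtp kept their call whichever of the 12 libraries was left out, and Igtp kept it in 5 of 12 such fits, losing it without any 1 control library, FAP41BBL replicate 1 or 3, or RT_FAP41BBL replicate 2 or 3. Gbp2, Gbp5, Iigp1 and Ifi47 had differences of 0.40 to 0.52 with adjusted p of 0.117 to 0.148, and Gbp7 one of 0.32 (adjusted p 0.208). With the muscle score as a covariate 2 members were called, Gbp3 (adjusted p 0.035) and Irgm1 (adjusted p 0.0451). Of all genes 147 were called in that fit, against 1787 in the main fit, while the median log2 difference of the members was 0.88 instead of 0.57.

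The interaction, the log2 difference between the radiotherapy effects with and without the agonist, ran from -0.15 to 0.18 over the 10 members with a median of -0.03. None was called by edgeR's quasi-likelihood test or by DESeq2, none had an unadjusted p under 0.05 (14.1% of all genes had), and of all genes 0.152% were called in either direction, 0.0282% with a positive and 0.124% with a negative interaction. The intervals were wide, the lowest bound at -0.89 (Tgtp1) and the highest at 1.08 (Gbp5), and do not exclude an interaction of that size. Over both radiotherapy states, the agonist gave 0 calls among the members and 0.349% among all genes in either direction. Those differences ran from 0.14 (Ifi47) to 0.46 ± 0.21 (Gbp5, unadjusted p 0.0491, adjusted p 0.314), and 1 member and 2799 of all genes had an unadjusted p under 0.05.

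**Figure D4:**
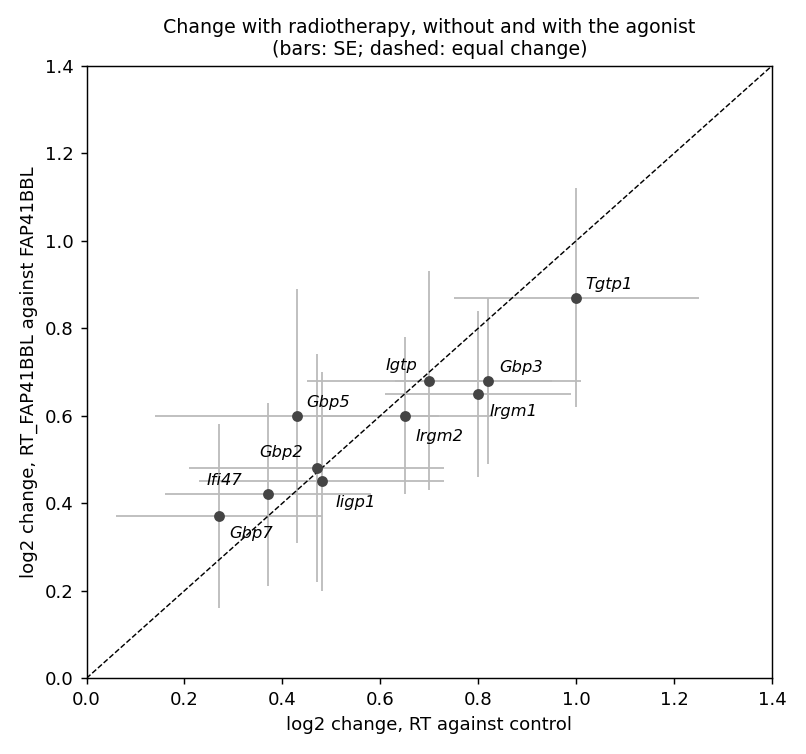
Log2 change with radiotherapy without the agonist (x axis, RT against control) and with it (y axis, RT_FAP41BBL against FAP41BBL) for the 10 genes; bars are SE and the dashed line marks equal change. All points lie near the line, from Gbp7 (0.27 and 0.37) to Tgtp1 (1.00 and 0.87).

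Libraries of a group differed in level for nearly the whole set at the same time. In control, replicate 2 was the lowest for all 10 genes and replicate 3 the highest for 8. In RT, replicate 1 was the highest for 9 genes and replicate 2 the lowest for 9. In RT_FAP41BBL, replicate 2 was the highest and replicate 1 the lowest for all 10. The summed CPM of the members was 1570, 1330 and 1730 for the controls, 2880, 1890 and 2150 with RT, 1550, 2360 and 1610 with FAP41BBL, and 2180, 3360 and 2560 with RT_FAP41BBL. The groups accounted for 41.3% (Gbp7) to 76.6% (Gbp3) of the variance of a gene's log2 CPM over the 12 libraries, with over 70% for Irgm1, Irgm2 and Tgtp1 and under 50% for Gbp2, Gbp7, Iigp1 and Ifi47. As a description over 12 libraries that share their group means, the 45 pairs of members had a Pearson r of 0.759 to 0.986 (median 0.893), and after removal of the group means 0.586 to 0.988 (median 0.877).

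The genes whose pattern was most like the mean log2 CPM of the members over the 12 libraries were, by Pearson r, Tgtp2 (0.99), Gbp10 (0.975), Gbp6 (0.972), Serpinb9 (0.949), M6pr (0.948), Il18bp (0.948), Parp9 (0.944) and Zbp1 (0.942). After removal of the group means r was 0.908 (Parp9) to 0.985 (Tgtp2). Serpinb9 encodes an inhibitor of granzyme B, Il18bp a soluble antagonist of interleukin-18 and Zbp1 a sensor of Z-form nucleic acid. Tgtp2 is a near-copy of the member Tgtp1, and 71.7% of the 150-base windows of its transcript also occur in Tgtp1.

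Of 16 other GTPase genes of these families and the Mx family, 15 were matched and 14 tested. In RT against control Mx1 (1.61 ± 0.29, adjusted p 0.00734) and Mx2 (1.46 ± 0.23, adjusted p 0.00372) rose. Both encode dynamin-like GTPases and are known as targets of type I and type III interferon. Irgq, an IRG-like gene, fell by 0.57 ± 0.12 (adjusted p 0.0127), beside 6.57% of all genes called higher and 3.05% lower. Mx1 measured 27.4, 32.4 and 40.9 CPM for the controls against 81.8, 102 and 123 with RT, where replicate 1 was the lowest. RT replicate 1 was the highest for 9 members, and this difference in the order of 3 libraries was not tested. In RT_FAP41BBL against control 7 of the 14 rose and 1 fell, beside 5.59% and 2.31% of all genes. Risers were Gbp6 (0.87), Gbp9 (0.85), Gbp10 (1.49), Tgtp2 (1.03), Gm12250 (0.96), also known as Irgb10, Mx1 (2) and Mx2 (1.5), and Irgq fell by 0.47. The other 6 did not pass, with log2 differences of 0.85 (Gbp2b), 1.08 (Gbp4), 1.08 (Gbp8), 1.21 (Gbp11), 1.18 (9930111J21Rik1) and 1.02 (9930111J21Rik2). FAP41BBL alone gave no call among the 14. Gbp6 and Gbp10 share 43.4% and 63.2% of their 150-base windows with other genes, so their single values are uncertain.

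Of the interferon signalling genes, Ifng, the gene of interferon-gamma itself, was near the lower end of detection: 57, 43 and 32 counts for the controls, 113, 24 and 88 with RT, 72, 90 and 65 with FAP41BBL, and 90, 180 and 137 with RT_FAP41BBL. RT replicate 2 had the fewest Ifng counts of all 12 libraries, and its members summed to 1890 CPM, against 1330 to 1730 in control. RT_FAP41BBL replicate 2, the library with the highest summed level of the members, had the most. Within RT, FAP41BBL and RT_FAP41BBL the library with the most Ifng counts was also the highest for the summed members. In control it was not: replicate 3 had the fewest Ifng counts and the highest sum. The relation of Ifng to the members was not tested. Its log2 difference from control was 0.68 ± 0.48 in RT (adjusted p 0.43), 0.81 ± 0.48 in FAP41BBL (adjusted p 0.999) and 1.59 ± 0.48 in RT_FAP41BBL (adjusted p 0.0656). Irf1, a transcription factor that binds the ISRE, differed by 0.18 in RT (adjusted p 0.625) and 0.68 in RT_FAP41BBL (adjusted p 0.0574). Of the 12 signalling genes, 3 rose in RT against control, Ifngr2 (0.39), Stat2 (0.72) and Irf9 (0.32), and 3 in RT_FAP41BBL against control, Stat2 (0.98), Irf9 (0.42) and Irf8 (0.76), beside 6.57% and 5.59% of all genes. Stat2 and Irf9 encode subunits of the factor that type I interferon activates. In RT_FAP41BBL against RT the receptor gene Ifngr1 rose by 0.35 ± 0.08 (adjusted p 0.0325).

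There were 17 listed genes whose products act with these GTPases, in the conjugation of ATG8 proteins, ubiquitin tagging of vacuoles and inflammasomes. In RT against control 0 were called in edgeR's quasi-likelihood test, with 5 at an unadjusted p under 0.05, as were 24.2% of all genes. In RT_FAP41BBL against control 3 of the 17 rose, beside 5.59% of all genes: Trim21 (0.63), a ubiquitin ligase, Casp4 (0.72), known as caspase-11, and Aim2 (1.01 ± 0.17, adjusted p 0.00592), a cytosolic DNA sensor. Aim2 stood at 17, 14 and 15.2 CPM in the controls, 13.9, 13.4 and 20.2 with RT, 20.4, 23.3 and 16 with FAP41BBL, and 27.8, 32.2 and 33.1 with RT_FAP41BBL. The RT_FAP41BBL libraries lay above all others. Against RT it rose by 0.97 ± 0.17 (adjusted p 0.0112), and over both radiotherapy states it rose with the agonist by 0.67 ± 0.12 (adjusted p 0.048), a comparison in which no member was called.

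The T cell markers had their lowest median sum in RT and their highest in RT_FAP41BBL. The 7 T cell markers summed to 43.1 to 75.3 CPM in control, 24.4 to 49.9 in RT, 70.9 to 86.8 in FAP41BBL and 74.3 to 105 in RT_FAP41BBL. In RT against control all 7 had log2 differences under 0 and none passed the test, whereas in RT_FAP41BBL against control all 7 were above 0 and 1 passed, Cd4. In RT_FAP41BBL against RT 3 of the 7 were called higher (Cd8a, Cd4 and Trac), with a median log2 difference of 1.03. Beside the calls in this paragraph, 6.57% of all genes were called higher in RT against control. That share was 5.59% in RT_FAP41BBL against control and 3.36% in RT_FAP41BBL against RT. The 5 NK cell markers summed to 8.75 to 12.7 CPM in control, 14.2 to 16.5 in RT, 14.3 to 18.6 in FAP41BBL and 16 to 25.2 in RT_FAP41BBL, and Klra8 among them was at or near 0 throughout. In RT against control 1 of the 4 NK cell markers tested was called higher, Eomes (0.89 ± 0.25, adjusted p 0.045). Those 4 markers had a median log2 difference of 0.247 there, with the lowest at -0.00246. The 8 macrophage and monocyte markers summed to 2830 to 3670 CPM in control, 2330 to 3840 in RT, 3270 to 4140 in FAP41BBL and 4150 to 5340 in RT_FAP41BBL, where all libraries were above all control libraries and 5 of the 8 were called higher against control and 4 against RT. In RT against control 1 of the 8 was called higher, the monocyte marker Ly6c2, from a mean of 17.6 to 61 CPM (log2 1.79 ± 0.19, adjusted p 0.000591). The 8 markers had a median log2 difference of 0.0711 there, with the lowest at -0.438. Single markers in this paragraph were picked after their values were seen. Endothelial markers summed to 201 to 230 CPM in control and 295 to 343 in RT_FAP41BBL, and B cell markers to 5.63 to 7.58 and 10.3 to 16, with 1 marker of each list called higher (Kdr and Cd79b). The 5 adipocyte markers summed to 18.5 to 63.7 CPM in control, 41.1 to 134 in RT, 100 to 187 in FAP41BBL and 55.2 to 223 in RT_FAP41BBL, with median log2 differences from control of 2.58 and 2.85 in the agonist groups and no call. In RT against control 7 of the 13 muscle markers were called higher. The 5 dendritic cell markers summed to 20.5 to 24.1 CPM in control and 16.2 to 22.3 in RT. Their sums were 20.9 to 32.7 CPM in FAP41BBL and 23.9 to 35.3 in RT_FAP41BBL. Of these 5, 0 were called in RT against control, with a median log2 difference of -0.261, and 1 was called higher in RT_FAP41BBL against RT. The part of these cell types in the levels of the members was not tested.

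**Figure D5:**
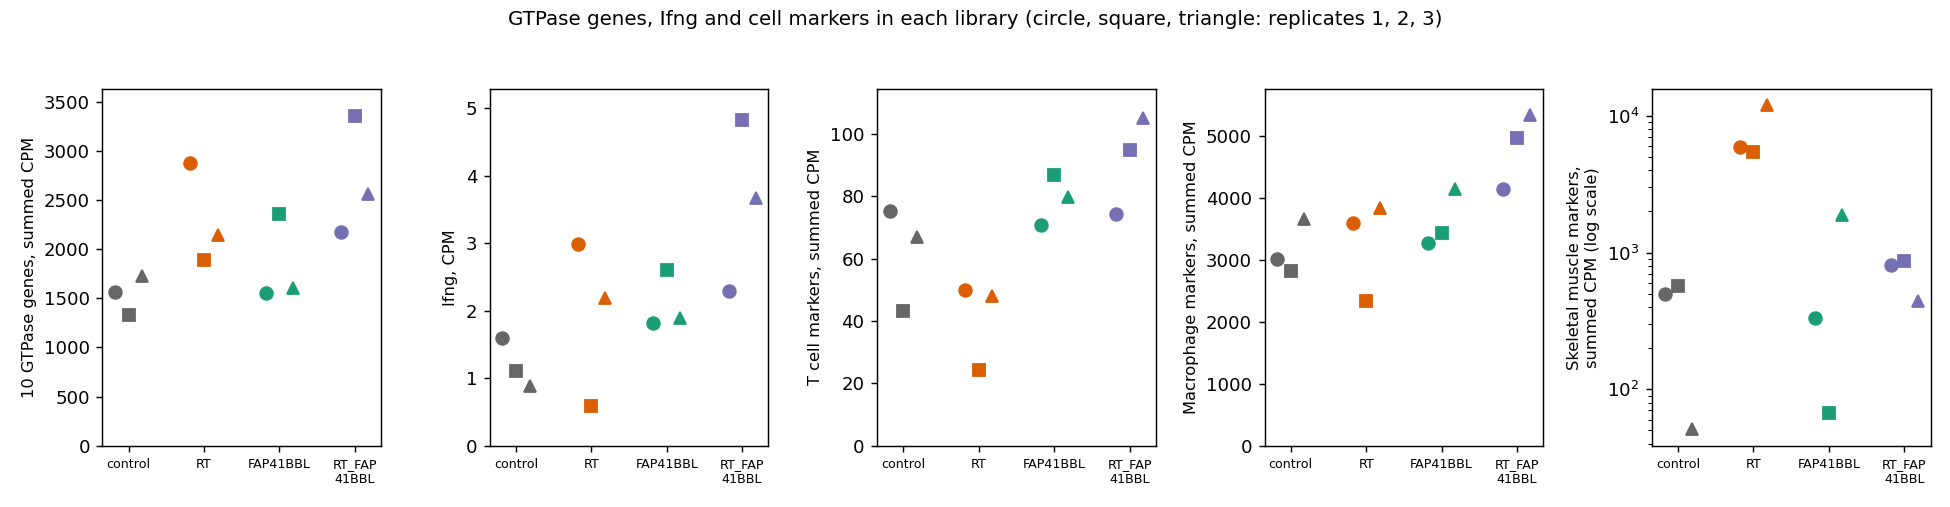
Summed CPM of the 10 members, CPM of Ifng, and summed CPM of T cell, macrophage and skeletal muscle markers in each library, by group, with symbols for replicates; the muscle axis is a log scale. T cell markers had their lowest median in RT (24.4 to 49.9 CPM), which overlapped control (43.1 to 75.3 CPM). Muscle markers were highest in RT (5420 to 12000 CPM), and both the members and Ifng peaked in RT_FAP41BBL replicate 2.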

How the data were processed

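Total RNA of 12 tumour samples was made into stranded mRNA libraries and sequenced as read pairs, per the labels' protocols. The authors deposited raw counts per gene, with a file for each library. Fragments had been assigned to exons with featureCounts 1.6.0, with regard to strand, on GRCm39 with GENCODE M33, per the file headers; STAR 2.7.9a and FastQC 0.11.8 are named per the submitters' processing notes. The headers show no option to count multi-mapping or multi-overlapping pairs, so members with near-copies may be undercounted.

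Symbols came from GENCODE M21 by gene identifier (51948 of 56884 genes). All 12 libraries entered 1 fit in R 4.3.3 with edgeR 4.0.16: filterByExpr (17757 genes kept), TMM scaling, and the quasi-likelihood test, with Benjamini-Hochberg adjustment over all genes tested and a threshold of 0.05. CPM values use TMM-scaled library sizes; RPKM divides them by exonic length. The biological coefficient of variation was 0.205, and 8 residual degrees of freedom were left. The 8 comparisons were the 5 pairs of groups with a shared arm, the interaction and both main effects. The members and gene lists were chosen with earlier results of these data known. Named were all members, the expressed related GTPases, listed signalling and partner genes past the test (with Ifng and Irf1; a further gene of this rule is not reported here), and the 8 genes most like the members.

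Alternatives were RLE scaling, library totals, no filter, DESeq2 1.42.0, limma-voom (limma 3.58.1), a replicate block, a muscle covariate, Tgtp1 with Tgtp2, the compared groups alone, and leaving out each library. The comparison of RT with FAP41BBL was not made. Windows of 150 bases shared between genes were counted over GENCODE M21 transcripts. Motifs were searched in Python 3.11.15. No genome of the authors' build was used; promoter letters are RefSeq's, of GRCm38.p6, and binding was not measured.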

Additional observations from a re-analysis of the deposited data

How the results depend on the processing

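Every one of the 10 members kept a difference above 0 in RT against control, RT_FAP41BBL against control, RT_FAP41BBL against FAP41BBL and both main effects under every alternative run. With the muscle score as a covariate the number called was 0 in RT against control, where 4 were called, 2 in irradiated against non-irradiated, where 5 were, and 7 in RT_FAP41BBL against control, where 5 were. DESeq2 called 8 in RT_FAP41BBL against control and 4 in RT_FAP41BBL against FAP41BBL, and a fit of only the compared groups called 8 in RT_FAP41BBL against control; the cause was not tested. Leaving out a library gave 0 to 3 calls in RT against control, 0 to 5 in RT_FAP41BBL against control, 4 to 6 in irradiated against non-irradiated and 0 in the other 5 comparisons.

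Differences without a call turned in RT_FAP41BBL against RT with the muscle covariate: Gbp2 -0.09, Gbp3 -0.19, Gbp7 -0.04, Irgm1 -0.18, Irgm2 -0.07, Igtp -0.05, Iigp1 -0.08 and Ifi47 -0.08. With single libraries left out they ran there from -0.12 to 0.21 (Gbp3), -0.07 to 0.29 (Irgm1), -0.04 to 0.53 (Igtp) and -0.07 to 0.49 (Tgtp1), the lowest without RT_FAP41BBL replicate 2, and in FAP41BBL against control from -0.08 to 0.36 (Gbp7) and -0.03 to 0.21 (Ifi47), the lowest without FAP41BBL replicate 2.

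The deviations of log2 CPM from the group means, over all genes tested, correlated by -0.344 to 0.432 over 18 pairs of same-numbered libraries. By this measure 5 of 12 libraries correlated best with a library of their own number. Same-numbered libraries share only a number. The replicate block left 4 members called in RT against control and 4 instead of 5 in both RT_FAP41BBL against control and irradiated against non-irradiated, where Igtp was lost (adjusted p 0.0713 and 0.0511).

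Counts over all genes moved more. RT against control had 1709 calls, 3 with the muscle covariate and 1064 with only the compared groups. RT_FAP41BBL against control had 1404, with 2325 by DESeq2, 3223 with only the compared groups and 893 with the covariate. RT_FAP41BBL against RT had 1022, with 2063 by DESeq2 and 1 with the covariate. RT_FAP41BBL against FAP41BBL had 168, with 783 by DESeq2 and 269 with only the compared groups. Irradiated against non-irradiated had 1787, and 147 with the covariate. The interaction had 27, with 639 by DESeq2, 102 without the filter, 17 with library totals, 9 with the block and 0 with the covariate. The agonist had 62, with 894 by DESeq2, 208 without the filter, 32 with RLE, 2 with the block and 0 with the covariate. FAP41BBL against control had 1, with 48 by DESeq2, 9 without the filter, 2 with the covariate and 0 with only the compared groups. Leaving out a library gave 805 to 1987 calls in RT against control, 351 to 914 in RT_FAP41BBL against control, 70 to 2305 in RT_FAP41BBL against RT, 0 to 132 in RT_FAP41BBL against FAP41BBL, 0 to 269 in the interaction, 869 to 2046 in irradiated against non-irradiated, 2 to 1092 with the agonist and 0 to 3 in FAP41BBL against control, so the shares of all genes called depend on single libraries. The members had at least 770 counts in a library and Ifng 24 to 180; depth as a limit was not tested.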
